A study of Mus musculus with 2 samples.

Results

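Txnrd1, Txn1, Srxn1, Prdx1, Prdx2, Prdx5, Prdx6, Gpx1, Gpx2 and Gpx4 are genes of thiol-based peroxide removal, and these 10 were followed by name through a single-cell RNA-seq table of the mouse esophagus. All 10 were found among the 18595 genes of the table, and all 10 had at least 20 unique molecular identifiers (UMIs, 1 per captured RNA molecule) in epithelial cells. Cells came from esophagus without its muscle layer, were dispersed with trypsin, and were profiled with 10x Genomics 3′ chemistry. The Keap1 cKO library came from K5CreERT2::Keap1 floxB/floxB animals and the control library from Keap1 floxB/floxB animals, so the floxed alleles are shared and the Cre transgene is the difference. Both are hybrids of C57BL/6J and BALB/c. CreERT2 is a tamoxifen-dependent recombinase, here under the keratin 5 promoter, which is active in basal keratinocytes. The sources used here do not give the deleted exons, the induction, the age or the number of animals per library.

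Thioredoxin (Txn1) reduces oxidized proteins and is itself reduced by the selenoenzyme thioredoxin reductase (Txnrd1), at the cost of NADPH. Peroxiredoxins reduce peroxides through a cysteine, which thioredoxin resets in Prdx1, Prdx2 and Prdx5 and glutathione in Prdx6. Sulfiredoxin (Srxn1) repairs typical peroxiredoxins such as Prdx1 and Prdx2 whose cysteine has been oxidized too far. Glutathione peroxidases reduce peroxides with glutathione instead; Gpx1, Gpx2 and Gpx4 are selenoproteins in the mouse. KEAP1 targets the transcription factor NRF2 for degradation, and Txnrd1, Srxn1, Prdx1 and Gpx2 are widely used as NRF2 target genes. NRF2 binds with small MAF proteins to antioxidant response elements.

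Each library is 1 sample, so no test was made: every interval below is a 95% interval that covers counting error only, and a ratio describes these 2 libraries and not the genotypes. The Keap1 cKO library held 2381 cells with a median of 8193 UMIs per cell, and the control library 2472 cells with a median of 11293.5. They shared 5 cell barcodes. The authors annotated 422 Keap1 cKO and 848 control cells as epithelial, with median depths of 5072.5 UMIs in Keap1 cKO and 17667 UMIs in control cells. Cluster 9 held the most epithelial cells of the Keap1 cKO library (140 of 422) and cluster 4 the most of the control library (313 of 848). Keap1 itself had 332 UMIs and 44.5 CPM (counts per 1000000 UMIs) in Keap1 cKO epithelial cells, against 961 UMIs and 69.8 CPM in control cells. In cluster 9 it was at 10.2 CPM in Keap1 cKO and 45.1 CPM in control cells. Cluster 14 had 48.1 CPM in Keap1 cKO and 34.9 CPM in control cells, from 51 and 23 UMIs. Outside the epithelial class Keap1 was at 47.3 CPM in Keap1 cKO and 53.9 CPM in control cells. T cell cluster 3 had 40.4 CPM in Keap1 cKO and 87.4 CPM in control cells. The 3′ tags of Keap1 check the label only if the deleted part includes them, which is not known.

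The promoters of the 5 members that were at least 1.5-fold higher in Keap1 cKO epithelial cells are shown, of which 3 hold a letter match to the antioxidant response element. Each window runs 5′ to 3′ along the gene, from 250 bases before to 50 bases after a RefSeq transcript start on GRCm38.p6. Capitals mark matches to TGACNNNGC, the core of the element, found on either strand.
Srxn1, chr2:152105274-152105573, plus strand: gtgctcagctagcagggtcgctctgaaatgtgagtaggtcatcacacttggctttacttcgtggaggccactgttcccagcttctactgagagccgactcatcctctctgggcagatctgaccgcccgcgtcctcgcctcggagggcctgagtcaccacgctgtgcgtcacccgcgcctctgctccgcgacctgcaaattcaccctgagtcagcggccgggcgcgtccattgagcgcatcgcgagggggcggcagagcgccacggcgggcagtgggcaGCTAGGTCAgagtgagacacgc
Prdx1, chr4:116685349-116685648, plus strand: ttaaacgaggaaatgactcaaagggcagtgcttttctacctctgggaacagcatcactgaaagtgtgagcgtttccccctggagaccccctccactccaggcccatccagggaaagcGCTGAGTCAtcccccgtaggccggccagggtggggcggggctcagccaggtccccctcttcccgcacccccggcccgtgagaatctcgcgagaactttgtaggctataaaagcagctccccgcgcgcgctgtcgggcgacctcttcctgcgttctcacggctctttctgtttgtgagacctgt
Txnrd1, chr10:82858956-82859255, plus strand: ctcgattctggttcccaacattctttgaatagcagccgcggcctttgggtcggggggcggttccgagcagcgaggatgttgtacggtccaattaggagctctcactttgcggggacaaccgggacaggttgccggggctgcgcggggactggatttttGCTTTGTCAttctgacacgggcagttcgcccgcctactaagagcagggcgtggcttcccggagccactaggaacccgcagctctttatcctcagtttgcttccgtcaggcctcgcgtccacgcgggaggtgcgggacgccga
Gpx2, chr12:76795505-76795804, minus strand: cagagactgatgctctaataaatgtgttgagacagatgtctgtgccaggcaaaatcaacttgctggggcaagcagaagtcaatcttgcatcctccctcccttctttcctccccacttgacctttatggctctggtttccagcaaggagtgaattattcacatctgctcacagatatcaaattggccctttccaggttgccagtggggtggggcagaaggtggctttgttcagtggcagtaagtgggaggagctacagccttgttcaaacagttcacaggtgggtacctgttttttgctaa
Prdx5, chr19:6910057-6910356, minus strand: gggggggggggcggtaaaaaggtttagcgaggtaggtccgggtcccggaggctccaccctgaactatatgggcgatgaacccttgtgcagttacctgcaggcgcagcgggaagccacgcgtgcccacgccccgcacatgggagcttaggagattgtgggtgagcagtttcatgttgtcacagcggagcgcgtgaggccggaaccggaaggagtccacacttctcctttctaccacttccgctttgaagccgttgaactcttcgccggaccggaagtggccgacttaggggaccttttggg

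All 3 matches lie on the strand opposite to the gene. In Srxn1 the match begins at position 29 after the start, in Prdx1 at -133 and in Txnrd1 at -92. The Gpx2 and Prdx5 windows hold no match, which says only that these letters are not in them. The AP-1 motif TGANTCA, which can share bases with the element, was found at -102 and -45 in Srxn1 and at -237 and -131 in Prdx1, where the second site overlaps the capitals. Windows existed for 9 of the 10 members, 14 windows in all; 3 of these 14 held TGACNNNGC and 2 held TGANTCA. Of all 32851 RefSeq windows of this length, 12.4% held TGACNNNGC and 7.81% held TGANTCA. For the Txnrd1 gene, 1 of its 3 windows held the match.

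In epithelial cells, 5 of the 10 members were at least 1.5-fold higher in the Keap1 cKO library than in the control library, and none was 1.5-fold lower. Among the 12638 genes that reached 20 UMIs in the 2 libraries together, 17.5% were that much higher and 15.8% that much lower. The 5 were Srxn1, Prdx1, Txnrd1, Gpx2 and Prdx5. The median log2 ratio was 0.61 over the members and -0.02 over all genes. Together the 10 genes made up 0.763% of UMIs in Keap1 cKO epithelial cells (0.757 to 0.770) and 0.442% in control cells (0.438 to 0.445). By cluster the share was 2.36% in Keap1 cKO and 0.625% in control cells of cluster 9, and 0.561% and 0.382% in cluster 4. In cluster 14 it was 0.509% in Keap1 cKO and 0.484% in control cells. It was lower in Keap1 cKO cells of cluster 13, at 0.472% against 0.509%, and of cluster 10, at 0.368% against 0.396%. Leaving out cluster 9, which differed between the libraries in other keratinocyte genes too, lowered Srxn1 to a log2 ratio of 1.66. Prdx1 was then at 0.59, just over the 1.5-fold line. The lowest values of Txnrd1 and Gpx2 over 13 alternative ways of counting or scaling were 0.97 and 0.59. With cluster 9 left out Prdx5 was at 0.45, and at 0.21 with clusters 4, 9, 10 and 13 weighted equally, both under the 1.5-fold line.

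**Figure D1:**
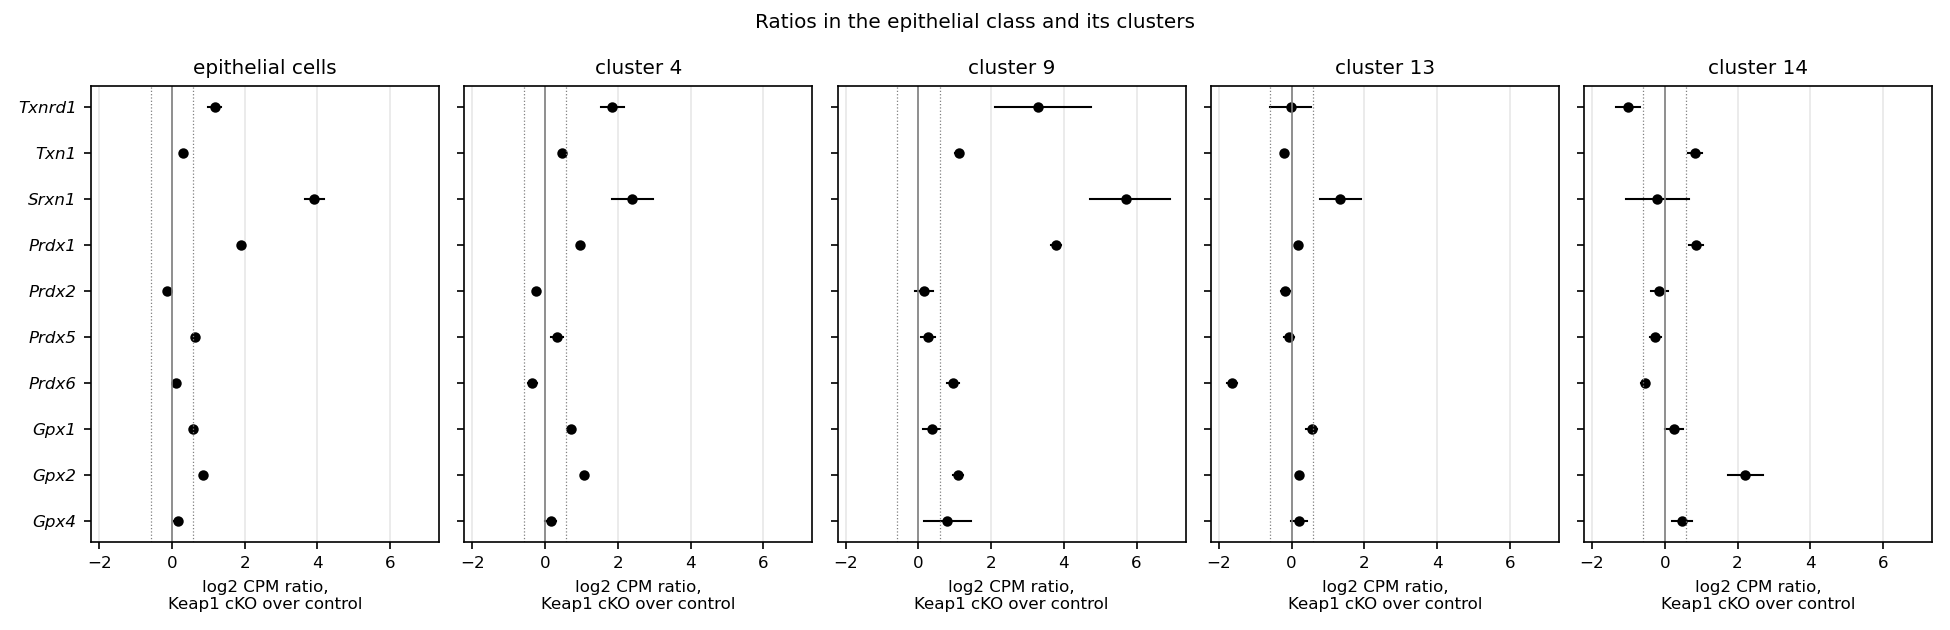
The log2 ratio of CPM, Keap1 cKO over control, for each gene in all epithelial cells and in 4 of their clusters; bars are exact 95% counting intervals and dotted lines mark 1.5-fold either way. Srxn1, Prdx1 and Txnrd1 lie farthest to the right in cluster 9, at 5.70, 3.79 and 3.28, while in cluster 13 Prdx6 lies at -1.64.

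Thioredoxin was among the most abundant of these genes in keratinocytes, and its reductase among the least. Txn1 (chr4:57943373-57956411, mm10) stood at 1777 CPM in Keap1 cKO epithelial cells and 1428 CPM in control cells, with a log2 ratio of 0.32 (0.28 to 0.35). Txnrd1 (chr10:82833951-82897712) stood at 75.01 CPM in Keap1 cKO cells, from 559 UMIs, and at 33.3 CPM in control cells, from 458 UMIs. Its log2 ratio was 1.17 (0.99 to 1.35).

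The ratio of the reductase was larger than that of thioredoxin in both cluster 4 and cluster 9, with intervals that did not overlap. Cluster 4 is led by the basal keratinocyte genes Col17a1, Lamb3 and Trp63, and cluster 9 by late cornified envelope genes (Lce3) and Sprr2d. In cluster 4 the log2 ratio was 1.85 (1.54 to 2.16) for Txnrd1 and 0.46 (0.41 to 0.51) for Txn1. There 10 of the 93 Keap1 cKO cells held 54.9% of the Txnrd1 UMIs and 38.3% of the Txn1 UMIs. In cluster 9 the log2 ratio of Txnrd1 was 3.28 (2.12 to 4.75). It came from 128 UMIs in 140 Keap1 cKO cells and 6 UMIs in 114 control cells. Txn1 in cluster 9 reached 3532 CPM in Keap1 cKO cells and 1623 CPM in control cells, for a log2 ratio of 1.12 (1.01 to 1.24).

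Clusters 13 and 14 showed no excess of Txnrd1 in the Keap1 cKO library. In cluster 13, led by the differentiation genes Krtdap, Dsg1b and Tgm3, Txnrd1 was at 18.2 CPM in Keap1 cKO cells and 18.3 CPM in control cells, with a log2 ratio of -0.01 (-0.58 to 0.54) whose interval holds the -0.21 (-0.27 to -0.16) of Txn1. Cluster 14 is led by Psca, Krt19 and Muc5b, genes of glandular or secretory epithelium, and held 40 Keap1 cKO and 42 control cells. There Txnrd1 was at 128 CPM in Keap1 cKO cells and 258 CPM in control cells, with a log2 ratio of -1.01 (-1.34 to -0.67). A single control cell held 103 of the 170 control UMIs, and without the cell with the most Txnrd1 UMIs in each library the log2 ratio was -0.20. Txn1 in cluster 14 was at 786 CPM in Keap1 cKO and 441 CPM in control cells, with a log2 ratio of 0.83 (0.64 to 1.03).

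Sulfiredoxin showed the largest ratio of the 10 genes in epithelial cells. Srxn1 (chr2:152105516-152111376) had 1110 UMIs and 149 CPM in Keap1 cKO epithelial cells, against 136 UMIs and 9.88 CPM in control cells. The difference was 15.1-fold, a log2 ratio of 3.91 (3.66 to 4.18). Most of it came from 1 cluster: 82.3% of the Keap1 cKO epithelial UMIs of Srxn1 were in cluster 9, and 5.88% of the control ones.

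In cluster 9 Srxn1 reached 936 CPM in Keap1 cKO cells, from 913 UMIs, and 18.04 CPM in control cells, from 8 UMIs, a log2 ratio of 5.70 (4.71 to 6.91). It was also higher in the basal-led cluster 4, at 32.1 CPM in Keap1 cKO and 6.16 CPM in control cells with a log2 ratio of 2.38 (1.83 to 2.97). There 10 of the 93 Keap1 cKO cells held 76.2% of the 84 Srxn1 UMIs. The lowest log2 ratio of cluster 4 under the alternative settings was 1.78. In cluster 13 Srxn1 was at 28.1 CPM in Keap1 cKO and 11.2 CPM in control cells, with a log2 ratio of 1.33 (0.77 to 1.90). In cluster 14 it was at 27.4 CPM in Keap1 cKO and 31.8 CPM in control cells, and the interval of the log2 ratio spanned 0, from -1.08 to 0.67.

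Depth was lower in Keap1 cKO than in control epithelial cells, so shares of cells with a UMI were also taken after thinning each cell to 700 UMIs. Thinned, 46 of 385 Keap1 cKO epithelial cells (11.9%, 8.88 to 15.6) had a Srxn1 UMI, against 5 of 771 control cells (0.649%, 0.211 to 1.51). The thinning left out 37 Keap1 cKO and 77 control cells that were shallower, and the unthinned shares were 35.5% in Keap1 cKO and 12.9% in control cells. In cluster 9 the thinned shares were 32.8% (24.9 to 41.6) of Keap1 cKO and 1.16% (0.0294 to 6.31) of control cells. Without thinning, 3 of 120 Keap1 cKO red blood cells (2.5%, 0.519 to 7.13) and 0 of 178 control ones (exact upper limit 2.05%) had a Srxn1 UMI, although hemoglobin fills most of their depth. Their median depths were 10271.5 UMIs in Keap1 cKO and 10831 UMIs in control cells.

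Prdx1 (chr4:116685544-116700822), the cytosolic peroxiredoxin that uses thioredoxin and sulfiredoxin, was the most abundant member in Keap1 cKO epithelial cells and ranked below Txn1 in control cells. It stood at 2594 CPM from 19332 UMIs in Keap1 cKO cells and at 697 CPM from 9594 UMIs in control cells. The log2 ratio was 1.90 (1.86 to 1.93). In cluster 9 it took 12913 CPM in Keap1 cKO cells against 936 CPM in control cells, with a log2 ratio of 3.79 (3.64 to 3.93).

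In cluster 4 Prdx1 was at 1235 CPM in Keap1 cKO and 632 CPM in control cells, with a log2 ratio of 0.97 (0.90 to 1.03). Cluster 14 had 825 CPM in Keap1 cKO and 456 CPM in control cells, with 0.85 (0.66 to 1.05). In cluster 13 the levels were close, at 845 CPM in Keap1 cKO and 746 CPM in control cells, with a log2 ratio of 0.18 (0.10 to 0.26). Without the cell with the most Prdx1 UMIs in each library the value of cluster 13 was 0.08. In cluster 4, 10 of the 93 Keap1 cKO cells held 51.0% of its Prdx1 UMIs, and with the 5% of cells of each library with the largest share of member UMIs left out the ratio was 0.50, under the 1.5-fold line.

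The cells of cluster 9 were not alike within the Keap1 cKO library. Prdx1 took a median of 0.586% of a cell's UMIs there, with quartiles at 0.112% and 1.71% and a highest cell at 6.46%. In control cells of cluster 9 the median was 0.101%, with quartiles at 0.00747% and 0.156% and a highest cell at 0.752%. Of the Keap1 cKO cells, 71 of 140 (50.7%, 42.1 to 59.3) lay above the 95th percentile of control cells for Prdx1 and 66 of 140 (47.1%, 38.7 to 55.8) for Srxn1. The Srxn1 count equals the cells with any Srxn1 UMI. For Txnrd1 the percentile was 0, so its 39 of 140 are the cells with any Txnrd1 UMI. Keap1 cKO cells of cluster 9 were deeper, with a median of 2456.5 UMIs in Keap1 cKO and 1441.5 UMIs in control cells; the part of depth in these 2 counts was not tested. The count was 40 of 140 for Txn1 and 18 of 140 for Gpx2. For Prdx2, Prdx5, Prdx6, Gpx1 and Gpx4 it ranged from 5 to 14 of 140, against the 5 or 6 of 114 control cells that the percentile leaves.

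Within cluster 9 of the Keap1 cKO library, Prdx1 was at 15726 CPM in the 66 cells with a Srxn1 UMI and at 2004 CPM in the 74 cells without one. Txnrd1 was at 156 CPM with and 35.0 CPM without one, and Txn1 at 4014 CPM with and 1665 CPM without. Prdx2 was at 486 CPM with and 430 CPM without, with overlapping intervals. Prdx5 and Gpx1 were lower in the cells with a Srxn1 UMI, Prdx5 at 759 CPM with and 1189.7 CPM without, and Gpx1 at 531 CPM with and 925 CPM without, with intervals apart. The cells with a Srxn1 UMI were deeper, with a median of 6042.5 UMIs against 1747.5, and the part of depth in this split was not tested. The same split in cluster 4 of that library gave 1882 CPM of Prdx1 with and 779 CPM without. There too the cells with a Srxn1 UMI were deeper. In clusters 13 and 14 of that library the intervals of Prdx1 with and without overlapped. Control cells did not show the same split. In cluster 9 of the control library Prdx1 was at 581 CPM (456 to 730) in the 7 cells with a Srxn1 UMI and at 1078 CPM (967 to 1199) in the 107 without. In control cells of cluster 4 it was at 641 CPM with and 630 CPM without, with overlapping intervals.

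Clusters 9 and 4 also differed between the libraries in marker genes. The 10 keratinocyte markers, such as Krt4 and Krt13, summed to 35155 CPM in Keap1 cKO cells of cluster 9 and, in its control cells, to 102050 CPM. The 8 cornified markers, such as Sprr3 and Lor, summed to 14378 CPM in Keap1 cKO and 5143 CPM in control cells. T cell markers were at 180.4 CPM in Keap1 cKO and 4.51 CPM in control cells and red blood cell markers at 3139 CPM in Keap1 cKO and 575 CPM in control cells, while natural killer, B and mast cell markers were at 0 in both. In cluster 4, keratinocyte markers were at 19905 CPM in Keap1 cKO and 25742 CPM in control cells, cornified markers at 289 CPM in Keap1 cKO and 12.9 CPM in control cells, red blood cell markers at 3609 CPM in Keap1 cKO and 661 CPM in control cells and cycling markers at 837 CPM in Keap1 cKO and 115 CPM in control cells. The part of these differences in the ratios of both clusters was not tested.

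**Figure D2:**
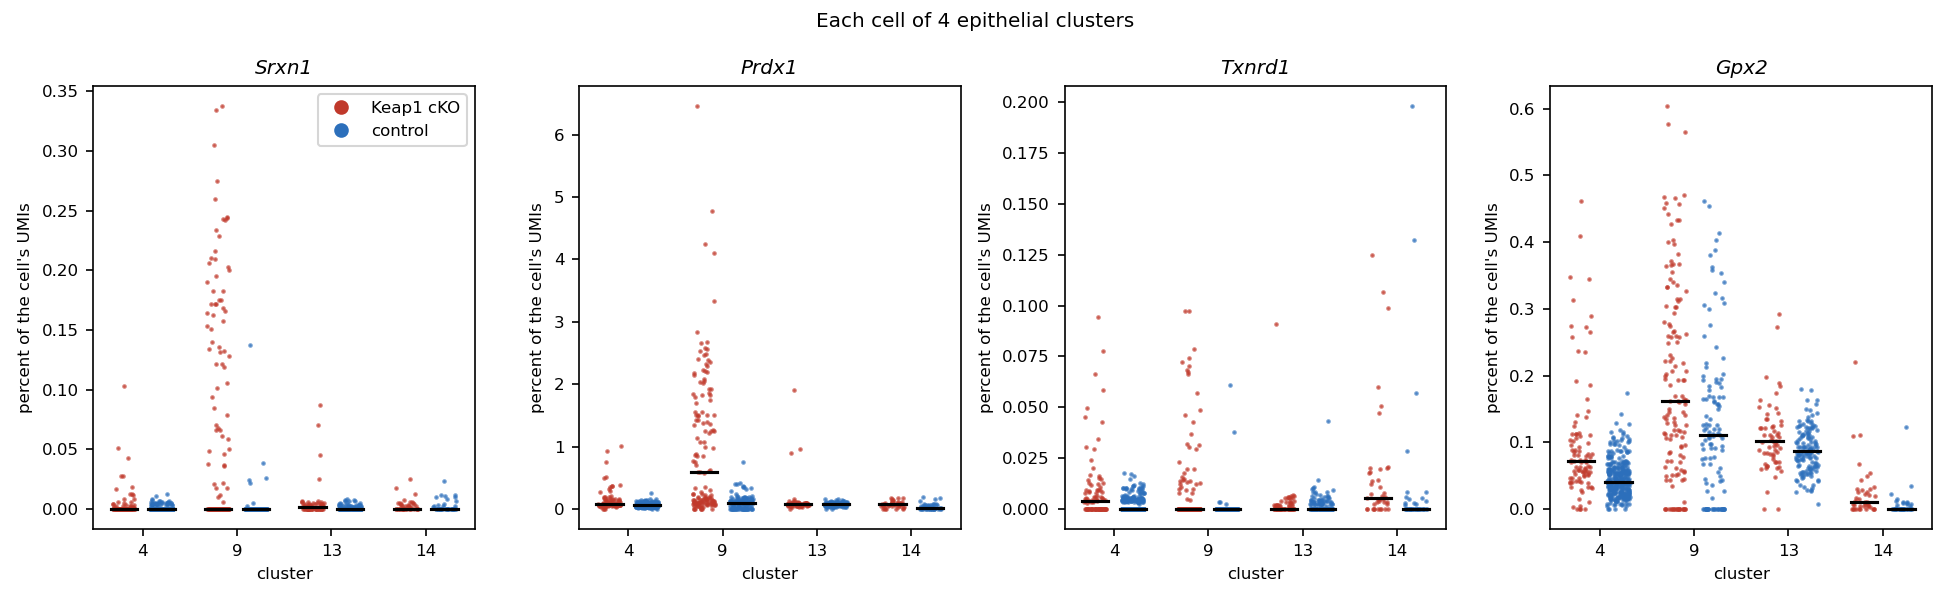
Each point is 1 cell, and its height the percent of the cell's UMIs from the gene named above the panel; black bars are medians, and each cluster shows Keap1 cKO cells left and control cells right. In cluster 9 the Keap1 cKO cells reach 6.46% for Prdx1, while the highest control cell is at 0.752%.

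The other 3 peroxiredoxins did not share the Prdx1 pattern. Prdx2, a cytosolic relative of Prdx1 abundant in red blood cells, was at 379 CPM in Keap1 cKO epithelial cells and 416 CPM in control cells, with a log2 ratio of -0.14 (-0.20 to -0.07). Its ratio lay between -0.50 and 0.15 in all 5 epithelial clusters compared. Prdx5, found in mitochondria, peroxisomes and cytosol, was at 395 CPM in Keap1 cKO and 254 CPM in control cells, with a log2 ratio of 0.64 (0.57 to 0.71). None of the 5 clusters compared reached that value for Prdx5: cluster 9 had 0.26, cluster 13 had -0.07, cluster 14 had -0.26, cluster 4 had 0.32 and cluster 10 had 0.33. The makeup of the class differed between the libraries, and its part in the class ratio was not tested. Over the 5 clusters compared, control levels of Prdx5 ranged from 150 CPM in cluster 4 to 706 CPM in cluster 9 and to 914 CPM in cluster 14. Epithelial cluster 15, not compared, had 131 CPM in control cells.

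Prdx6 (chr1:161240112-161251219), which reduces phospholipid hydroperoxides, was at 556 CPM in Keap1 cKO epithelial cells and 512 CPM in control cells. Its log2 ratio was 0.12 (0.06 to 0.17), but the clusters went in both directions. In cluster 13 it was at 207 CPM in Keap1 cKO cells and 648 CPM in control cells, with a log2 ratio of -1.64 (-1.78 to -1.51). None of the 61 Keap1 cKO cells of cluster 13 lay above the control 95th percentile, with an exact upper limit of 5.87%. Keratinocyte markers were at 43337 CPM in Keap1 cKO and 53715 CPM in control cells in cluster 13, cornified markers at 2014 CPM in Keap1 cKO and 87.6 CPM in control cells, and fibroblast markers at 1461 CPM in Keap1 cKO and 288 CPM in control cells; their part in this ratio was not tested.

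In cluster 9 Prdx6 was at 1655 CPM in Keap1 cKO and 857 CPM in control cells, with a log2 ratio of 0.95 (0.79 to 1.11) that rests on 1 cell. A single Keap1 cKO cell held 992 of the 1615 Prdx6 UMIs of that cluster. Without the cell with the most Prdx6 UMIs in each library the log2 ratio of cluster 9 was -0.39, and that of all epithelial cells -0.22. Over cells, the median share of UMIs from Prdx6 in cluster 9 was 0.0237% in Keap1 cKO cells and 0.0546% in control cells. Clusters 4 and 14 had log2 ratios of -0.36 (-0.48 to -0.23) and -0.54 (-0.66 to -0.42).

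Among the glutathione peroxidases, Gpx2 (chr12:76792333-76795554), the form known from gastrointestinal epithelium, was higher in the Keap1 cKO library. It was at 1086 CPM in Keap1 cKO epithelial cells and 606 CPM in control cells, with a log2 ratio of 0.84 (0.80 to 0.89). The ratio was similar in cluster 4, at 969 CPM in Keap1 cKO and 464 CPM in control cells with 1.06 (0.99 to 1.14), and in cluster 9, at 2426 CPM in Keap1 cKO and 1141 CPM in control cells with 1.09 (0.95 to 1.23). In cluster 13 it was 0.19 (0.12 to 0.27).

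Cluster 14 had the largest Gpx2 ratio at the lowest Gpx2 levels of these 4 clusters, 294 CPM in Keap1 cKO and 63.6 CPM in control cells, with a log2 ratio of 2.21 (1.74 to 2.71). Markers of other cell types differed in cluster 14: gastric markers summed to 1732 CPM in Keap1 cKO and 36.4 CPM in control cells, macrophage or monocyte markers to 2575 CPM in Keap1 cKO and 182 CPM in control cells, and keratinocyte markers to 30309.5 CPM in Keap1 cKO and 49399.6 CPM in control cells. Median depth there was 27848 UMIs in Keap1 cKO and 3547.5 UMIs in control cells. Their part in the cluster 14 ratios was not tested.

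Gpx1, a cytosolic enzyme, was at 433 CPM in Keap1 cKO epithelial cells and 290.4 CPM in control cells. Its log2 ratio of 0.58 (0.51 to 0.64) lay just under the 1.5-fold line, at 1.49-fold, while Prdx5 lay just over it, at 1.56-fold. Gpx1 was above the line in cluster 4, at 503 CPM in Keap1 cKO and 307 CPM in control cells with 0.71 (0.61 to 0.81). It was at 0.55 (0.41 to 0.70) in cluster 13 and 0.37 (0.14 to 0.60) in cluster 9. Of the Keap1 cKO cells, 28 of 93 in cluster 4 and 16 of 61 in cluster 13 lay above the control 95th percentile for Gpx1.

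Gpx4, which reduces lipid hydroperoxides in membranes and guards cells against ferroptosis, was at 188 CPM in Keap1 cKO and 168 CPM in control epithelial cells. Its log2 ratio was 0.16 (0.06 to 0.26), and -0.35 after thinning each cell to 700 UMIs. In cluster 9 it was 0.78 (0.16 to 1.45), from 102 Keap1 cKO and 27 control UMIs.

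Counted by cluster, 5 of 10 members were at least 1.5-fold higher in Keap1 cKO cells of cluster 4 and none was lower, where 18.9% of all genes were higher and 18.2% lower. Cluster 9 had 7 higher and none lower, beside 19.8% of all genes higher and 30.2% lower. With median-of-ratios scaling the shares were 30.2% higher and 19.9% lower, and 8 members were higher. Of the 7, Prdx6 rests on the 1 cell described above. Gpx2 was under 1.5-fold with the mean over cells (0.55) and with thinning (0.37), and Gpx4 with the mean over cells (0.25) and with the deepest 5% of cells left out (0.15). With the mean over cells 5 members were higher (25.9% of all genes), as with thinning (21.4%) and the deepest 5% of cells left out (21.8%). A 2-fold line also gave 5 (12.3%). These were not the same 5 members in each case. The 5 of cluster 4 became 4 with the largest shares left out, without Prdx1, beside 18.9% of all genes higher. Thinning also gave 4 there, beside 21%. Cluster 13 had 1 higher (Srxn1) and 1 lower (Prdx6), beside 14.3% and 15.4%. Cluster 14 had 3 higher (Gpx2, Prdx1 and Txn1) and 1 lower (Txnrd1), beside 34.4% and 9.07%. With median-of-ratios scaling these shares were 19.6% and 18%, and Prdx1 (0.54) and Txn1 (0.52) were under 1.5-fold.

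Cluster 10, a shallow cluster with median depths of 809 UMIs in Keap1 cKO and 1178 UMIs in control cells, had 8 members with at least 20 UMIs. Of these, 2 (Gpx4 and Prdx6) were at least 1.5-fold lower and none higher, beside 21.9% of all genes lower and 26.3% higher. With median-of-ratios scaling the shares were 46.7% lower and 11.8% higher. Hemoglobin took 0.909% of its UMIs in the Keap1 cKO library and 7.20% in the control library, and T cell markers summed to 1260 CPM in Keap1 cKO and 225 CPM in control cells; their part was not tested. Cluster 15, led by the mitotic genes Cdc20 and Ccnb1, had 7 Keap1 cKO and 75 control cells and was not compared. Its 75 control cells had 1721 CPM of Txn1, 850 CPM of Prdx1 and, for Srxn1, 9.28 CPM.

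**Figure D3:**
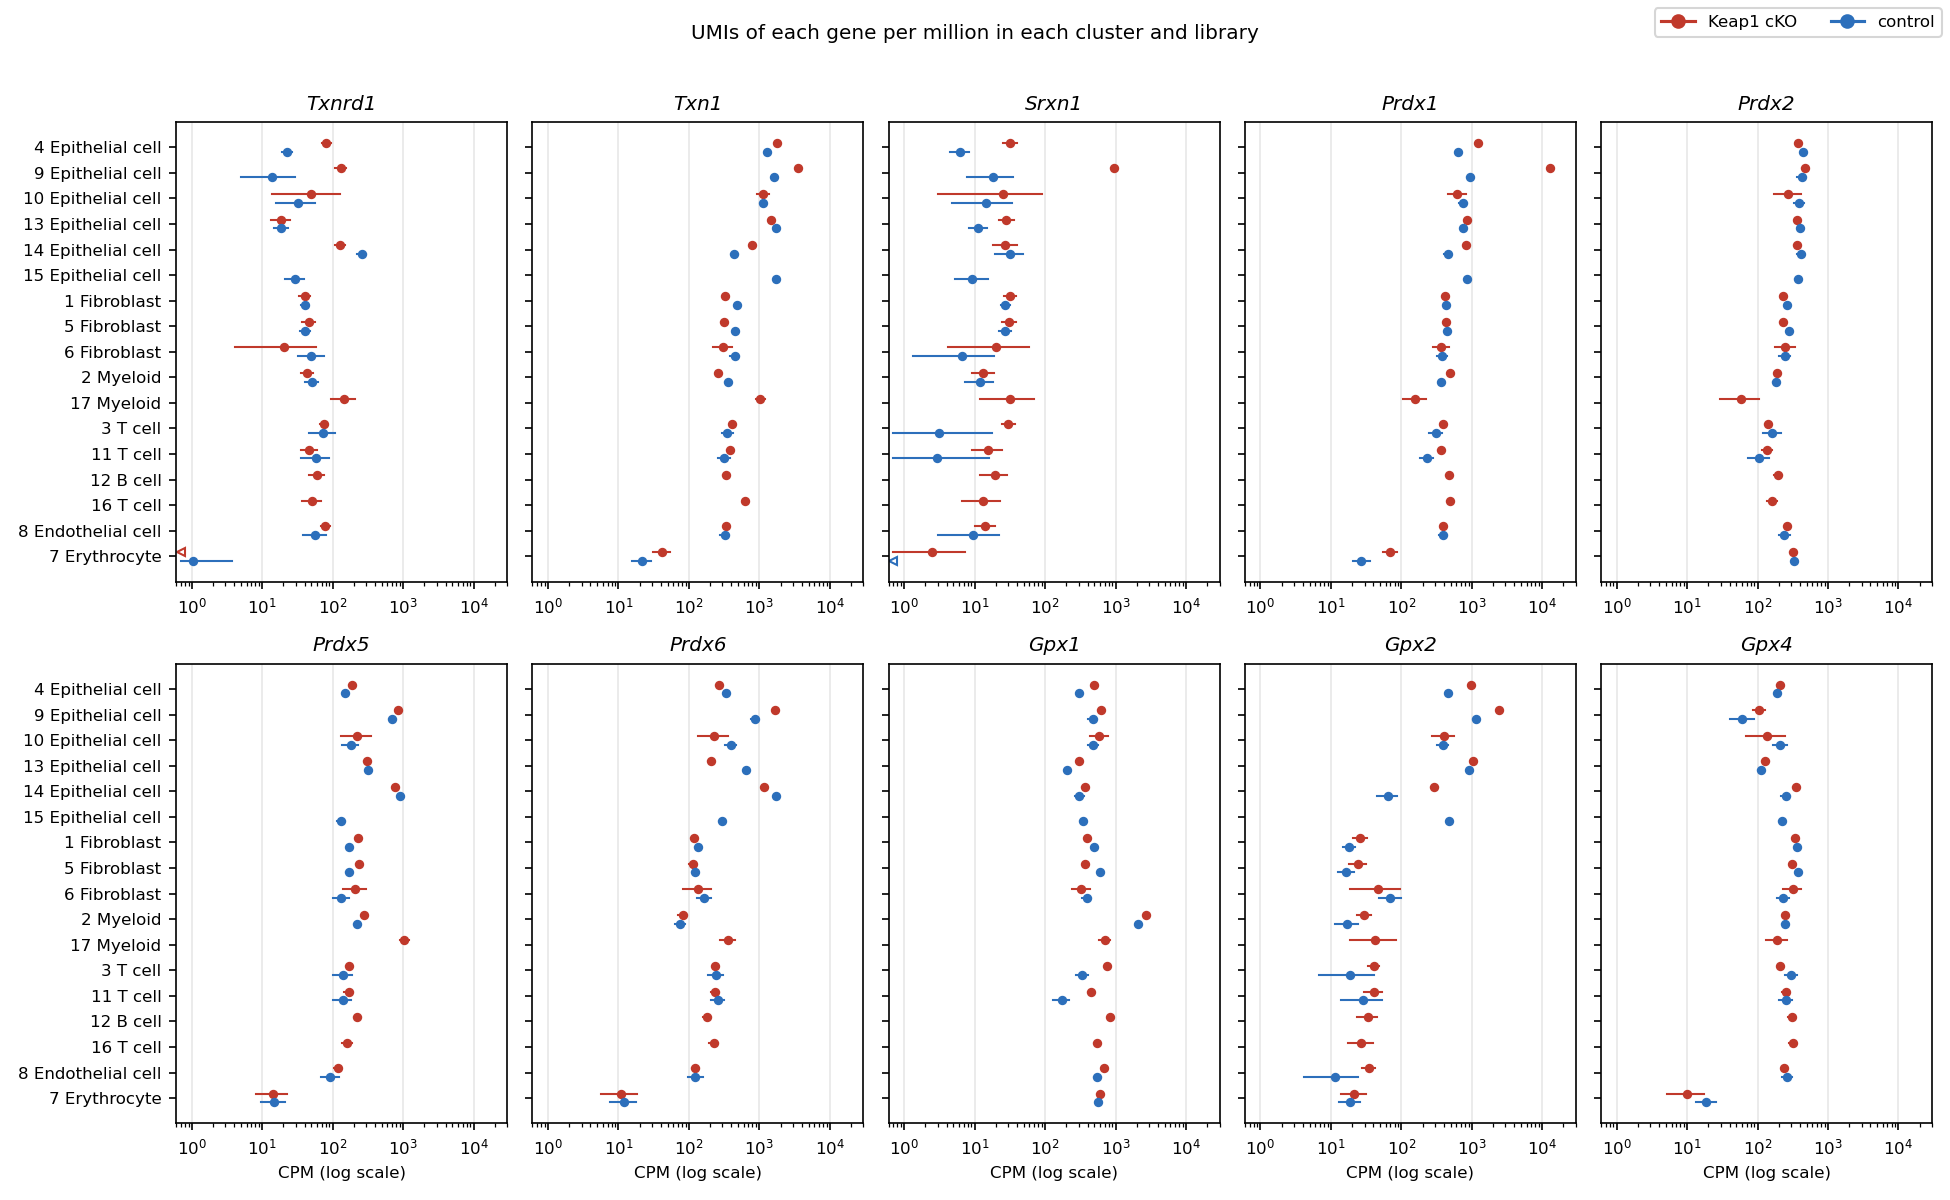
CPM of each gene in every cluster with at least 40 cells in a library, on a log axis, Keap1 cKO in red above control in blue; bars are exact 95% Poisson intervals and open triangles mark 0 UMIs. Txn1, Prdx1 and Gpx2 are highest in epithelial clusters, and Gpx1 is highest in myeloid cluster 2, at 2680 CPM in the Keap1 cKO library and 2060 CPM in the control library.

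Across the esophagus the members were highest in different clusters. Levels were compared over 16 clusters with at least 40 cells in the Keap1 cKO library and 14 in the control library. Gpx2 was highest in epithelial clusters, at 2426 CPM in its highest cluster of the Keap1 cKO library (cluster 9) and 1141 CPM in that of the control library (also cluster 9). Outside the epithelial class it was at 31.5 CPM in Keap1 cKO and 28.0 CPM in control cells. Red blood cells, taken as a measure of free RNA, had 0.217 Gpx2 UMIs per Keap1 cKO cell and 0.202 per control cell. Myeloid cluster 2 had 0.202 per Keap1 cKO cell and 0.178 per control cell, which is read as background. In the Keap1 cKO library clusters 1, 3, 5, 8, 11 and 16 lay above the red blood cells, at 0.401, 0.347, 0.437, 0.478, 0.294 and 0.521 per cell. In the control library clusters 1 and 5 had 0.220 and 0.229, and clusters 3, 8 and 11 had 0.102, 0.113 and 0.172, below the red blood cells.

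Txn1 was highest in keratinocytes as well. In the control library its levels ran from 1278 to 1721 CPM in clusters 4, 9, 13 and 15 and from 313 to 480 CPM in the fibroblast, myeloid, T cell and endothelial clusters. Epithelial cluster 10 had 1130 CPM there. Epithelial cluster 14 had 441 CPM, below fibroblast clusters 1 and 5. Neutrophil-led cluster 17, with 56 cells in the Keap1 cKO library and 4 in the control library, had 1035 CPM of Txn1 in the Keap1 cKO library. The same cells had 1046 CPM of Prdx5, its highest level in that library, and 145 CPM of Txnrd1. That Txnrd1 level had a neighbour within its interval, 131 CPM in cluster 9.

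Gpx1 was the most abundant member in myeloid cluster 2, and Gpx1 and Prdx2 were the most abundant in red blood cells. Cluster 2, led by the macrophage genes Retnla, F13a1 and Mrc1, had 2680 CPM of Gpx1 in Keap1 cKO cells and 2060 CPM in control cells. Hemoglobin took 93.1% of UMIs in Keap1 cKO and 93.5% in control red blood cells, which lowers every other level there. As CPM of the UMIs that were not hemoglobin, Gpx1 was at 8648 in Keap1 cKO red blood cells and 8768 in control ones. Prdx2 was at 4679 (4225 to 5168) in Keap1 cKO and 5149 (4758 to 5565) in control red blood cells on that scale. A red blood cell held 5.99 Gpx1 UMIs on average in the Keap1 cKO library and 6.11 in the control library, and an epithelial cell 7.65 in the Keap1 cKO library and 4.71 in the control library.

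Prdx5 and Prdx6 were both high in clusters 9 and 14, and Gpx4 was highest elsewhere in the control library. In the control library Prdx6 was at 1712 CPM in cluster 14 and at 857 CPM in cluster 9, against 75.4 to 259 CPM in the myeloid, fibroblast, T cell and endothelial clusters. Gpx4 was highest in the fibroblasts of cluster 5 in the control library, at 373 CPM, and the lowest level outside red blood cells was 60.9 CPM, in cluster 9. Of the 13 neighbouring pairs in the control order of clusters, 10 had overlapping intervals for Gpx4, 13 for Srxn1, 11 for Txnrd1 and 7 for Prdx6. The Srxn1 order in the control library is therefore not resolved between any neighbours.

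Over all cells, 3 of the 10 members (Srxn1, Prdx1 and Txnrd1) were at least 1.5-fold higher and none lower in the Keap1 cKO library, beside 25.3% of all genes higher and 13.7% lower. Outside the epithelial class as a whole, none of the 10 members was 1.5-fold higher or lower in the Keap1 cKO library, where 27.8% of all 14678 genes were higher and 14.8% lower. The ratios lay between -0.38 for Txn1 and 0.47 for Txnrd1. Srxn1 was at 21.6 CPM in Keap1 cKO cells and 19.4 CPM in control cells, with a log2 ratio of 0.16 (-0.06 to 0.37). Prdx1 was at 401 CPM in Keap1 cKO and 385 CPM in control cells, with 0.06 (0.01 to 0.11). These classes differ in makeup between the libraries, so clusters were also read one by one.

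In the fibroblasts of clusters 1 and 5, Txn1 was lower in the Keap1 cKO library, at 330 CPM in Keap1 cKO and 480 CPM in control cells in cluster 1 and at 311 CPM in Keap1 cKO and 458 CPM in control cells in cluster 5. The log2 ratios were -0.54 (-0.65 to -0.44) and -0.56 (-0.69 to -0.43). In cluster 1 no member was 1.5-fold apart, beside 13.9% of genes higher and 16.1% lower. Gpx1 was the single member past 1.5-fold in cluster 5, at 367 CPM in Keap1 cKO and 606 CPM in control cells with -0.72 (-0.84 to -0.61), beside 18.2% of all genes lower and 13.2% higher.

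Gpx1 went the other way in both T cell clusters compared. In cluster 3, led by the gamma delta T cell genes Trdv4, Tcrg-C1 and Il17a, it was at 766 CPM in Keap1 cKO cells and 334 CPM in control cells, with a log2 ratio of 1.20 (0.92 to 1.49). In cluster 11, led by the cytotoxic T cell genes Gzma, Cd8a and Nkg7, it was at 442 CPM in Keap1 cKO and 172 CPM in control cells, with 1.36 (0.97 to 1.77). Hemoglobin took 0.105% of Keap1 cKO and 5.12% of control UMIs in cluster 11. Medians over all genes were 0.05 in cluster 3, 0.14 in cluster 11 and -0.09 in cluster 5, small beside these ratios. Srxn1 in cluster 3 had 97 UMIs in 378 Keap1 cKO cells and 1 UMI in 59 control cells, a log2 ratio of 3.27 with an interval from 0.76 to 8.59.

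In cluster 3, 3 members were at least 1.5-fold higher (Srxn1, Gpx1 and Gpx2), beside 21.6% of all genes, and none was lower, beside 14.5%. Cluster 11 had 2 of 9 higher (Gpx1 and Prdx1) and none lower, beside 23.2% and 9.34%. Endothelial cluster 8 had 2 higher (Gpx2 and Srxn1) and none lower, beside 26.1% and 9.84%. Myeloid cluster 2 had 1 higher and none lower, beside 15.8% and 10.9%; this is Gpx2, at the background level in both libraries, and is not read as a difference. These counts rest on few control UMIs for Gpx2, at 30, 6 and 6 in clusters 2, 3 and 8, and for Srxn1, at 5 in cluster 8. Control Gpx2 in clusters 3 and 8 was also below the red blood cell level, so these ratios are set against background. In shallow cluster 6, 1 of 9 members was higher (Prdx5) and 1 lower (Txnrd1), beside 13.7% and 25.5%. Red blood cells had 2 of 8 higher (Prdx1 and Txn1) and 1 lower (Gpx4), beside 17.7% and 18.8%. There Prdx1 was at 69.5 CPM in Keap1 cKO and 27.1 CPM in control cells, with a log2 ratio of 1.36 (0.84 to 1.88), from 84 UMIs in 120 Keap1 cKO cells and 52 UMIs in 178 control cells. Per red blood cell this was 0.7 UMIs in Keap1 cKO and 0.292 in control cells, against 45.8 and 11.3 per epithelial cell. Red blood cells were taken above as a measure of free RNA, so these values are not read as expression by red blood cells. The part of free RNA in them was not tested.

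**Figure D4:**
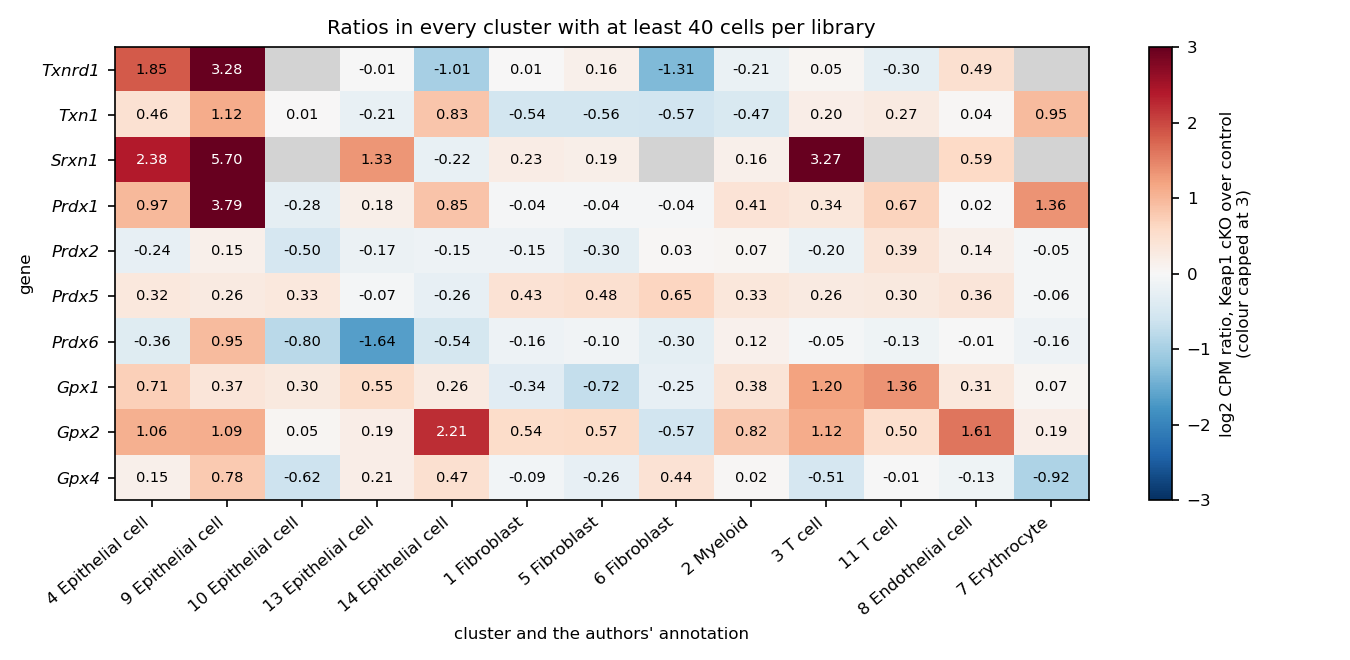
The log2 ratio of CPM, Keap1 cKO over control, for each gene (rows) in each cluster with at least 40 cells per library (columns); grey cells had fewer than 20 UMIs over both libraries. Colour is capped at 3 either way. Srxn1, Prdx1 and Txnrd1 in cluster 9 and Srxn1 in cluster 3 (3.27) lie past the cap and share the deepest red. Gpx1 is at 1.20 and 1.36 in T cell clusters 3 and 11 but -0.72 in fibroblast cluster 5.

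Other genes of the pathway were taken from a list of 29 thioredoxin, glutaredoxin, superoxide dismutase and related genes, of which 28 had at least 20 UMIs in epithelial cells. At least 1.5-fold, 5 were higher and 3 lower in the Keap1 cKO library, beside 17.5% and 15.8% of all genes, and the median log2 ratio was 0.12. The highest 3 with at least 100 UMIs were Glrx (glutaredoxin), Gsr (glutathione reductase) and Prdx3 (the mitochondrial peroxiredoxin). Glrx was at 120.5 CPM in Keap1 cKO cells and 20.6 CPM in control cells, with a log2 ratio of 2.55 (2.36 to 2.75). Gsr was at 106 CPM in Keap1 cKO and 21.7 CPM in control cells, with 2.28 (2.09 to 2.48), and Prdx3 at 44.7 CPM in Keap1 cKO and 22.7 CPM in control cells, with 0.97 (0.75 to 1.20).

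Gsr in cluster 9 had 300 UMIs in Keap1 cKO cells and 3 in control cells, a log2 ratio of 5.51 (3.95 to 7.79). Gsr and Glrx were also higher outside the epithelial class, by log2 ratios of 1.58 (1.37 to 1.79) and 1.68 (1.51 to 1.86). The libraries differed in makeup there: T cell cluster 3 had 378 Keap1 cKO and 59 control cells, and fibroblast cluster 1 had 187 and 545. The part of makeup in these pooled ratios, and in that of Txnip below, was not tested. The lowest 3 were Txnip, which binds and inhibits thioredoxin, Sesn1, a stress-induced sestrin, and Nxn (nucleoredoxin). Txnip was at 80.9 CPM in Keap1 cKO epithelial cells and 279 CPM in control cells, with a log2 ratio of -1.78 (-1.91 to -1.66), and it was also lower outside the class, at -0.93 (-0.98 to -0.88). Sesn1 was at 20.3 CPM in Keap1 cKO and 56.9 CPM in control cells, with -1.49 (-1.75 to -1.24), and Nxn at 69.0 CPM in Keap1 cKO and 119 CPM in control cells, with -0.78 (-0.93 to -0.64).

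Txnrd1, Gpx1, Gpx2 and Gpx4 need selenocysteine, so a list of 13 genes of selenoprotein synthesis and other selenoproteins was read beside them. None of the 13 was 1.5-fold higher in epithelial cells and 1 (Pstk, a kinase of the selenocysteine pathway) was lower, at 13.7 CPM in Keap1 cKO and 23.8 CPM in control cells with -0.80 (-1.13 to -0.48). The highest was Sephs2, which makes selenophosphate, at 33.7 CPM in Keap1 cKO and 22.9 CPM in control cells with 0.56 (0.31 to 0.80). The list's median was -0.22, beside -0.02 for all genes.

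Likeness of pattern was measured as Pearson's r of log2(CPM + 1) over the 30 groups of a cluster in a library with at least 40 cells, among 9523 genes. It is given as a description, since the groups share libraries and depth. Single groups can also weigh heavily on r. Srxn1 was at 936 CPM in Keap1 cKO cells of cluster 9 and at most 32.2 CPM in any other group. Red blood cells, filled with hemoglobin, were lowest for several members, such as Txn1 at 41.3 CPM in Keap1 cKO and 21.4 CPM in control cells. The part of these groups in r was not tested. The gene most like Srxn1 was Prdx1, at r = 0.81, followed by Sqor at 0.77 and G6pdx at 0.74. Prdx1 itself was most like Esd, Blmh and Txndc17, at 0.91, 0.91 and 0.89. Gpx2 was most like the keratinocyte genes Pkp1, Dmkn and Sfn, at 0.96, 0.96 and 0.95. Among the members, Prdx5 and Prdx6 were at 0.85, Txn1 and Prdx1 at 0.85, and Gpx1 with Prdx6 at -0.35.

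Several members overlap other genes on mm10: Prdx2 with Junb and Rnaseh2a on the other strand, Prdx5 with Trmt112, Gpx2 with Fntb and Txnrd1 with Eid3. No source used here says whether counting used the strand, and reads in these overlaps cannot be assigned with certainty. Cluster 12 is annotated as B cells but led by the dendritic cell genes Cd207, Ccr7 and Ccl22, and with 34 control cells it was not compared.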

How the data were processed

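Per the labels' protocols, libraries used 10x Genomics 3′ chemistry. The submitters' processing notes name mm10, Cell Ranger 6.0.1, Seurat 4.0.2 and R 4.1.1. The values deposited by the authors are natural logs: each cell sums to 10000 before 1 is added. The smallest step in a cell gave back its UMI counts, 100% whole within 0.01 UMIs, at 500 to 100520 per cell. The authors' cell types and 19 clusters were kept, no cell was removed and no doublet caller was run.

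UMIs were summed per cluster and library (Python 3.11.15, scipy 1.17.1) and given as CPM. Intervals are Poisson for sums, conditional binomial for ratios and Clopper-Pearson for shares, all exact, at 95%. Ratios needed at least 40 cells per library. Promoters are from RefSeq (GRCm38.p6), positions from GENCODE on mm10. The members and lists were chosen with earlier results of these data known. Other genes named are the 3 highest and 3 lowest of each list with at least 100 UMIs, and the 3 most alike in pattern. The interval scripts were tested on simulated data. Alternatives concerned scaling, cell weight, thinning, depth, hemoglobin, clusters left out, folds and UMI minima.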

Additional observations from a re-analysis of the deposited data

Results flagged for a closer look

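A total of 3 genes had ratios past 1.5-fold in opposite directions in different clusters, with an interval apart from 0 on both sides. Gpx4 was also past 1.5-fold both ways, at 0.78 in cluster 9, -0.62 in cluster 10 and -0.92 in red blood cells, but the intervals of the negative values held 0. These differences between clusters were not tested, since each library is 1 sample.

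Txnrd1 had a log2 ratio of 3.28 in cluster 9 and -1.01 in cluster 14; the value of cluster 14 rests on 1 control cell, as described above. Prdx6 had 0.95 in cluster 9, which rests on 1 Keap1 cKO cell, and -1.64 in cluster 13. Without the cell with the most Prdx6 UMIs in each library, both clusters were below 0, at -0.39 in cluster 9 and -1.57 in cluster 13. Gpx1 had 1.36 in T cell cluster 11 and -0.72 in fibroblast cluster 5.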

How the results depend on the processing

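No paired analysis was possible because each genotype has 1 library, and for the same reason no replicate could be left out. Of the 10 epithelial ratios, 8 kept their sign under all 13 alternatives; Prdx6 ran from -0.36 to 0.15 and Gpx4 from -0.35 to 0.22. Srxn1 ran from 1.66 to 4.398, Prdx1 from 0.59 to 2.51 and Txnrd1 from 0.97 to 1.70. Leaving out cluster 9, the 5% of cells with the largest share of these genes, or the cell with the most UMIs was added after the data were seen.

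Prdx6 in cluster 9 turned negative with the mean over cells (-0.51), thinning (-0.14), the deepest 5% of cells left out (-0.46), the 5% of cells with the largest share left out (-0.27) and the cell with the most UMIs left out (-0.39). Txnrd1 in cluster 14 turned positive with the mean over cells (0.72) and the deepest 5% of cells left out (0.17). At 2-fold, 3 members were higher in epithelial cells (10.6% of all genes) and 3 in cluster 4 (9.94%); thinning gave 1 lower in cluster 4 (23.3%). In cluster 10, 4 were lower under median-of-ratios scaling (46.7% of all genes), 1 under the mean over cells, thinning, at least 1000 UMIs per cell, the deepest 5% of cells left out, hemoglobin cells left out, the largest shares left out or a minimum of 100 UMIs, and 0 at 2-fold (12.6%), with 22.6% to 28.0% of all genes lower under the settings of cells; 1 was higher with thinning (18.5%), and 2 with hemoglobin cells left out (21.7%) or no minimum. In cluster 13, 2 were higher with the mean over cells (14.7%) or thinning (15%). In cluster 14, 1 was higher under median-of-ratios scaling (19.6%) or at 2-fold (16.8%). There 2 were lower under median-of-ratios scaling or thinning (18% each) or scaling without the 20 most abundant genes (12.1%). With the mean over cells none was lower (15.4%). The same held with the top cell left out, a setting made for members only, so it has no share of all genes.

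Median-of-ratios scaling moved every ratio by 0.32 (cluster 9), -0.52 (cluster 10) and -0.32 (cluster 14), and by less than 0.1 in epithelial cells and clusters 4 and 13. It turned the sign of Txn1, Prdx5, Gpx1 and Gpx2 in cluster 10 and of Gpx1 in cluster 14; none of these was 1.5-fold apart in the values reported above. Without a minimum of UMIs, or with 100, the share of all genes 1.5-fold higher moved to 46.4% and 12.1% in cluster 10 and to 22.5% and 8.88% in cluster 13; in cluster 14 it was 21.0% with 100, and the share lower was 14.9% without one. The causes of these shifts were not tested.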
